A study of Homo sapiens with 9 samples.

Results

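The nicotinic acetylcholine receptor subunits are the proteins that build the ion channels opened by acetylcholine. The members were 10 human subunit genes named by symbol, CHRNA1 to CHRNA7, CHRNB1, CHRNB2 and CHRNB4, and every probe set that the platform annotation assigns to them was taken. Of the 10 genes, 8 had a probe set of their own, which gave 11 probe sets among the 22215 tested and 8 genes among the 11963 with a probe set of 1 symbol. CHRNA7 was named only on a probe set shared with CHRFAM7A, a partial duplicate of CHRNA7 fused to other sequence, and CHRNA4 was not named on any probe set, so its transcript was not measured here. With the shared probe set, 12 probe sets are described below. Of the 3 probe sets for CHRNA3, 2 carry the suffix _x_at, which marks probes that can match other transcripts.

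The samples were cultures of the human neuroblastoma line IMR32 in 3 groups of 3 arrays. The first stably expressed the 82-kDa form of choline acetyltransferase (82CHAT), the second expressed the 69-kDa form (69CHAT), and the third was labelled wild type (WT). Choline acetyltransferase, the product of CHAT, makes acetylcholine, the ligand of these receptors. Because each form was carried by a separate line, the form and the line carrying it cannot be told apart, and how each line was made, from 1 clone or a pool, is not given in the sources used here. Both comparisons with WT use the same 3 WT arrays. The values are deposited intensities on a linear scale, and all differences are on the log2 scale with the standard error (SE) of the fit over all 9 arrays.

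Nicotinic receptors are pentamers of subunits arranged around a cation pore, and the subunit mixture sets where a receptor is found and how it responds. Receptors of α3 with β4, often joined by α5, carry fast transmission in autonomic ganglia and the adrenal medulla, the lineage from which neuroblastoma arises. Receptors of α4 and β2 predominate in the brain, α7 forms pentamers on its own, and α1 with β1 belongs to the muscle receptor. CHRNA5, CHRNA3 and CHRNB4 lie side by side on human chromosome 15 in the RefSeq gene order, with PSMA4 next to CHRNA5 and ADAMTS7 next to CHRNB4.

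The WT arrays stood apart from both lines, so every comparison with WT below also compares these libraries. Pairs of a line array and a WT array correlated at 0.913 to 0.933 over log2 values, and pairs of an 82CHAT and a 69CHAT array at 0.976 to 0.994. MYCN, the oncogene amplified in IMR32 cells, read 4301 to 6118 on 82CHAT arrays and 4181 to 5947 on 69CHAT arrays, against 62.5 to 120 on WT arrays, so the WT label is in doubt and "WT" means the arrays labelled so throughout. Summed intensities of 9 measured neuroblastoma and sympathoadrenal markers, of 10 listed, were 10764 to 15858 in the 82CHAT line, 9385 to 14335 in the 69CHAT line and 1475 to 1693 in WT, and 7 of the 9 were called higher in each line. The 6 epithelial markers summed to 260 to 296 in the 82CHAT line, 253 to 294 in the 69CHAT line and 5408 to 6176 in WT; all 6 were called lower in each line, and 4 of them lay below the lower quartile of every array of both lines. The 6 mesenchymal markers summed to 4481 to 6476 in the 82CHAT line, 4474 to 7510 in the 69CHAT line and 11970 to 12700 in WT, with 4 called lower in the 82CHAT line and 3 in the 69CHAT line. With the replicate number as a block, COL1A2 was also called higher in both lines, and in the 69CHAT line DBH and COL1A1 were called higher and VIM lower. Without the block, 11.8% of all genes were called higher and 18.5% lower in the 82CHAT line, and 11.7% and 17.7% in the 69CHAT line. The part of the marker shifts in the subunit differences was not tested. CHAT itself read 1066, 423 and 1067 on the 82CHAT arrays, 256, 175 and 177 on the 69CHAT arrays, and 148, 125 and 114 on the WT arrays; it was called 6.11-fold higher in the 82CHAT line (limma adjusted p = 0.00057), and its log2 difference of 0.64 in the 69CHAT line was not called (adjusted p = 0.23), though it was without 82CHAT replicate 2 (0.028) and in the fit of the 6 arrays compared (0.040).

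Most subunit differences from WT that passed the test were those of the ganglionic subunits, all of them higher in the lines. A probe set is called here where limma's Benjamini-Hochberg adjusted p, taken over all 22215 probe sets, was below 0.05. In the 82CHAT line 6 of the 11 probe sets were called higher than WT, 0 were lower and 5 were not called, against 11% of all probe sets called higher and 15.7% called lower. In the 69CHAT line 5 of the 11 were called higher, 0 lower and 6 not called, against 10.9% and 15.3% of all probe sets. All 3 CHRNA3 probe sets, CHRNB4 and CHRNA5 were called higher in both lines, and 1 of the 2 CHRNA1 probe sets was called in the 82CHAT line. Of the 11 probe sets, 6 had every line array above every WT array in each comparison, against 20.9% of all probe sets for the 82CHAT line and 22.5% for the 69CHAT line. The median log2 difference of the 11 probe sets was 0.43 in the 82CHAT line and 0.47 in the 69CHAT line, against 0.062 and 0.058 over all probe sets. The probe sets of CHRNA3 measure the same transcript, so counted by gene with its brightest probe set, 4 of 8 genes were higher in the 82CHAT line and 3 of 8 in the 69CHAT line, against 11.8% and 11.7% of 11963 genes.

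**Figure D1:**
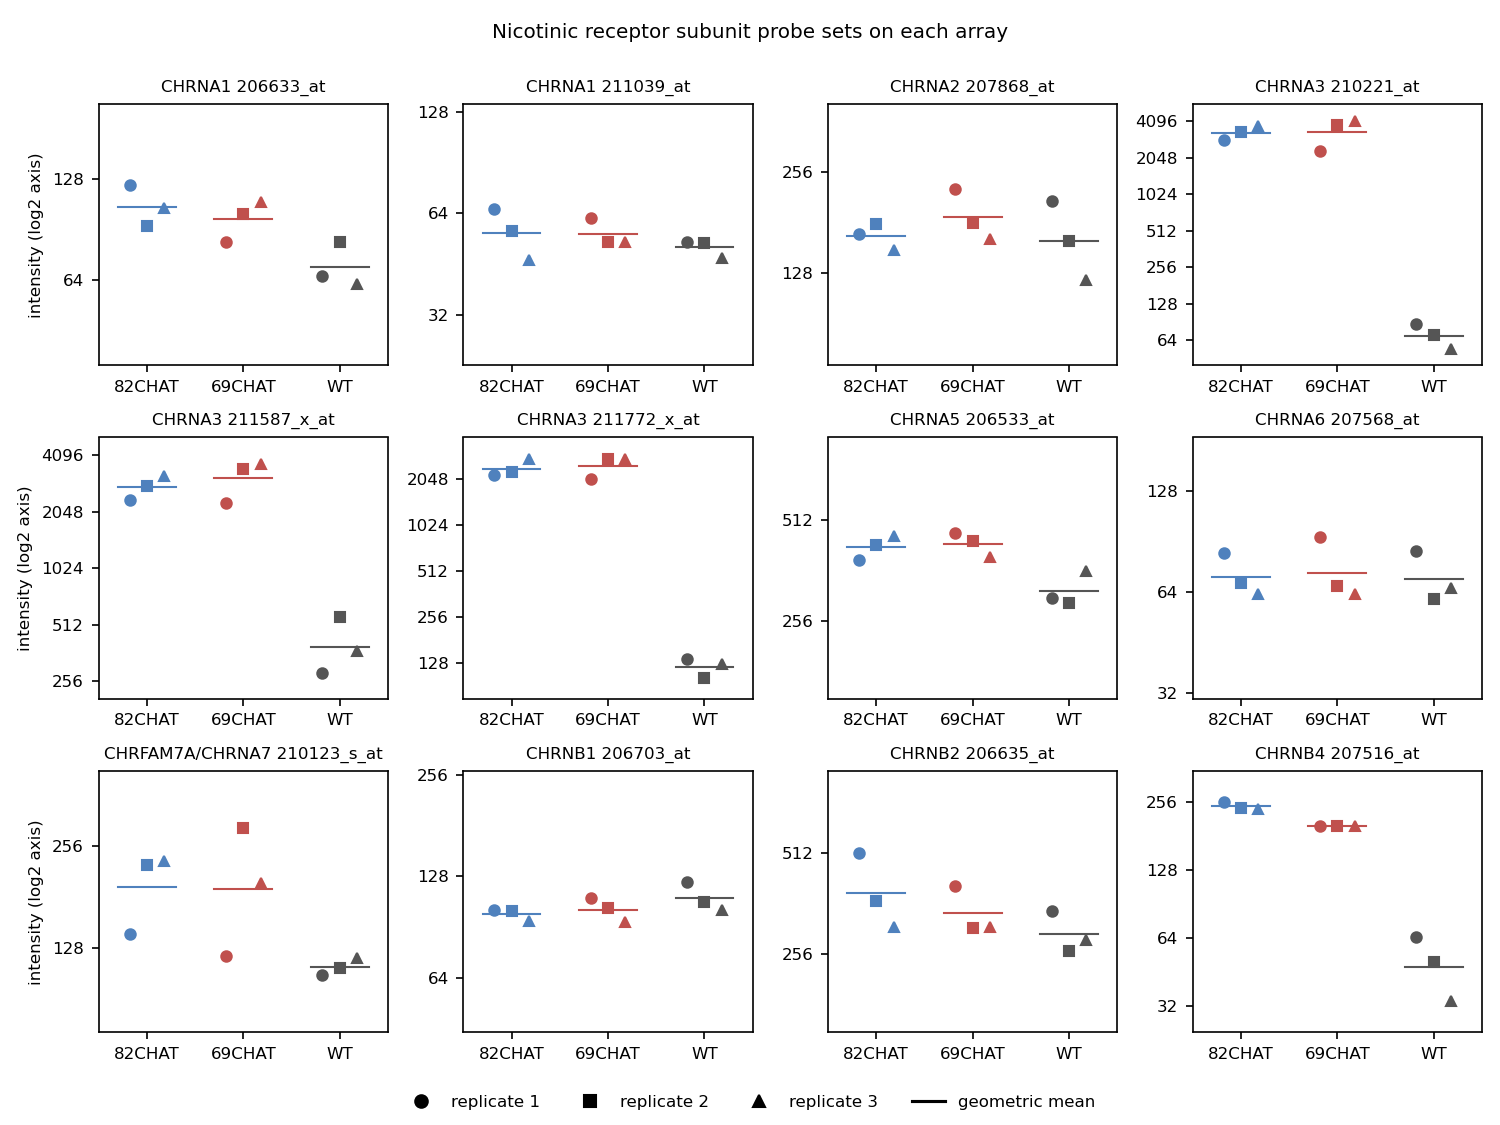
Deposited intensity (log axis) of each of the 12 subunit probe sets on every array, with 82CHAT, 69CHAT and WT from left to right and one symbol for each replicate number; bars are the means of the log2 values. The 3 CHRNA3 probe sets and CHRNB4 show the line arrays far above every WT array, while CHRNA2, CHRNA6 and CHRNB1 overlap.

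CHRNA3 encodes α3, the ligand-binding subunit of the main ganglionic receptor, and it differed most from WT among the members in both lines. Its probe set 210221_at read 2870, 3299 and 3715 on the 82CHAT arrays, 2307, 3815 and 4107 on the 69CHAT arrays, and 87.6, 70.2 and 54.5 on the WT arrays. The lowest line array was thus many times the highest WT array, and 1 of the 3 WT values lay below the lower quartile of its own array, in the dim part of the range. The log2 difference was 5.56 (SE 0.24) in the 82CHAT line, a 47.2-fold higher level with a 95% interval of 32.1 to 69.3 (limma adjusted p = 1.0e-06). In the 69CHAT line it was 5.57 (SE 0.24), or 47.6-fold with an interval of 32.4 to 69.9 (limma adjusted p = 9.8e-07). In bulk RNA, fewer cells with a transcript and less of it per cell cannot be told apart.

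The other CHRNA3 probe sets gave the same direction with smaller folds. Probe set 211772_x_at read 2166, 2272 and 2759 on the 82CHAT arrays, 2044, 2763 and 2771 on the 69CHAT arrays, and 135, 102 and 126 on the WT arrays. It was 19.9-fold higher in the 82CHAT line (limma adjusted p = 3.9e-07) and 20.8-fold higher in the 69CHAT line (limma adjusted p = 3.7e-07). Probe set 211587_x_at read 2375, 2807 and 3160 on the 82CHAT arrays, 2275, 3485 and 3702 on the 69CHAT arrays, and 283, 564 and 369 on the WT arrays. It was 7.10-fold higher in the 82CHAT line (limma adjusted p = 9.1e-05) and 7.93-fold higher in the 69CHAT line (limma adjusted p = 6.6e-05). Every line array exceeded every WT array on all 3 probe sets. The size of the CHRNA3 difference depended strongly on the probe set, from 7.10-fold to 47.2-fold in the 82CHAT line and from 7.93-fold to 47.6-fold in the 69CHAT line.

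CHRNB4, which encodes β4, the structural partner of α3 in ganglia, was the other strongly raised subunit. Its probe set 207516_at read 255, 242 and 238 on the 82CHAT arrays, 201 on each of the 3 69CHAT arrays, and 64.6, 50.1 and 33.7 on the WT arrays. No line array came near a WT array, and 2 of the 3 WT values lay below the lower quartile of their arrays. The log2 difference was 2.36 (SE 0.20) in the 82CHAT line, 5.12-fold with a 95% interval of 3.75 to 6.99 (limma adjusted p = 4.4e-05). It was 2.07 (SE 0.20) in the 69CHAT line, 4.21-fold with an interval of 3.08 to 5.75 (limma adjusted p = 9.3e-05). The identical 69CHAT values stand so in the deposited table, where 81 of 22215 probe sets have 1 value on all 3 69CHAT arrays, as do 48 on the 82CHAT and 29 on the WT arrays. The spread of CHRNB4 in that line is therefore not a measured one, and the SE comes from the fit over all groups. The tied values enter that fit, while the standard deviation of the log2 values was 0.47 in WT and 0.05 in the 82CHAT line. The SE and intervals of CHRNB4 may therefore be too narrow.

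CHRNA5 encodes α5, an accessory subunit that joins α3β4 receptors without forming the usual binding site. Probe set 206533_at read 388, 430 and 458 on the 82CHAT arrays, 467, 445 and 397 on the 69CHAT arrays, and 299.8, 290.1 and 359.9 on the WT arrays. Every line array exceeded every WT array by a small margin. It was 1.35-fold higher in the 82CHAT line, a log2 difference of 0.43 (SE 0.11, limma adjusted p = 0.021), and 1.38-fold higher in the 69CHAT line, a log2 difference of 0.47 (SE 0.11, limma adjusted p = 0.015). The 82CHAT call was lost without 82CHAT replicate 2 (adjusted p = 0.067), 82CHAT replicate 3 (0.071), WT replicate 1 (0.069) or WT replicate 2 (0.079). The 69CHAT call was lost without 69CHAT replicate 2 (0.055), WT replicate 1 (0.052) or WT replicate 2 (0.058).

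Genes that flank this cluster were not called in either comparison. PSMA4, a proteasome subunit gene next to CHRNA5, had log2 differences of -0.30 in the 82CHAT line (limma adjusted p = 0.47) and -0.22 in the 69CHAT line (adjusted p = 0.60). MORF4L1, a chromatin gene beyond CHRNB4 and ADAMTS7, differed by 0.03 (adjusted p = 0.93) and -0.03 (adjusted p = 0.94) in the 82CHAT and 69CHAT lines. Of 7 measured genes near the cluster, of 11 listed, 0 were called in either line by limma, and 1 in the 82CHAT line and 0 in the 69CHAT line had an unadjusted p below 0.05, against 36.5% and 35.4% of all probe sets. That 1 was CTSH, a lysosomal protease gene, which was called lower in the 82CHAT line with the replicate number as a block.

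Because CHRNA3 and CHRNB4 stood higher together, the 250 bases before their start sites are printed, beside those of CHRNB2. That neuronal subunit was not called over the 9 arrays without the replicate block, but was in the 82CHAT line with it. The sequences and coordinates are RefSeq's on GRCh38.p14, each 5′ to 3′ on the gene's own strand. Windows for 6 of the 10 genes were in the table. Capitals mark GGGCGG on either strand, CCGCCC when read along the gene, the core of the GC box bound by the SP family, and neighbouring matches may overlap.
CHRNA3, chr15:78620997-78621246, minus strand: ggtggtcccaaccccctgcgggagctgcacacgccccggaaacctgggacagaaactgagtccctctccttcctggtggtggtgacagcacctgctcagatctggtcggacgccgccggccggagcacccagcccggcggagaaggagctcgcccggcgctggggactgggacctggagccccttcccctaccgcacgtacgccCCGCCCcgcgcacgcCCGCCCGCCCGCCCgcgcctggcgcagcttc
CHRNB4, chr15:78641211-78641460, minus strand: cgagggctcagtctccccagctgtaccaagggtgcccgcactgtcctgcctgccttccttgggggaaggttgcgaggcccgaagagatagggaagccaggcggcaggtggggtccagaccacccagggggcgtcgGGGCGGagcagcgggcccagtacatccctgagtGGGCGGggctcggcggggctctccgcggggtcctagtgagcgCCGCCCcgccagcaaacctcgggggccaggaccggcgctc
CHRNB2, chr1:154567528-154567777, plus strand: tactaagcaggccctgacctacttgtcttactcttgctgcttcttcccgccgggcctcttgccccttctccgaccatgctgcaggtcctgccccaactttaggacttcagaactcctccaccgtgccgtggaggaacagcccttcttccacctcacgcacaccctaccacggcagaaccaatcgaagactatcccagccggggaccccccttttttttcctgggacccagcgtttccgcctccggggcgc
The CHRNA3 window held 4 GC-box matches, the CHRNB4 window 3 and the CHRNB2 window 0, and 42.6% of 34788 such RefSeq windows held at least 1. The windows were 73.6%, 72.4% and 60.4% G or C, in the same order. Of the other genes with a window, CHRNA7 had 6 matches in each of its 2 overlapping windows (80.4% and 79.2% G or C), CHRNB1 had 2 and CHRNA1 had 0. The probe set that CHRNA7 shares with CHRFAM7A was not called without the replicate block but was called higher in both lines with it. The E-box CANNTG, which reads the same on both strands, occurred 1 time in the CHRNA3 window, 2 times in the CHRNB4 window and 0 times in the CHRNB2 window, against 61.8% of all windows with at least 1. GCCNNNGGC, an AP-2 type sequence, occurred 1 time in the CHRNA3 window and 0 times in those of CHRNB4 and CHRNB2 (19.8% of all windows), and TGANTCA, an AP-1 type sequence, in none of the 3 (6.59% of all windows). These are letter matches in a fixed window and were not tested against the expression values.

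**Figure D2:**
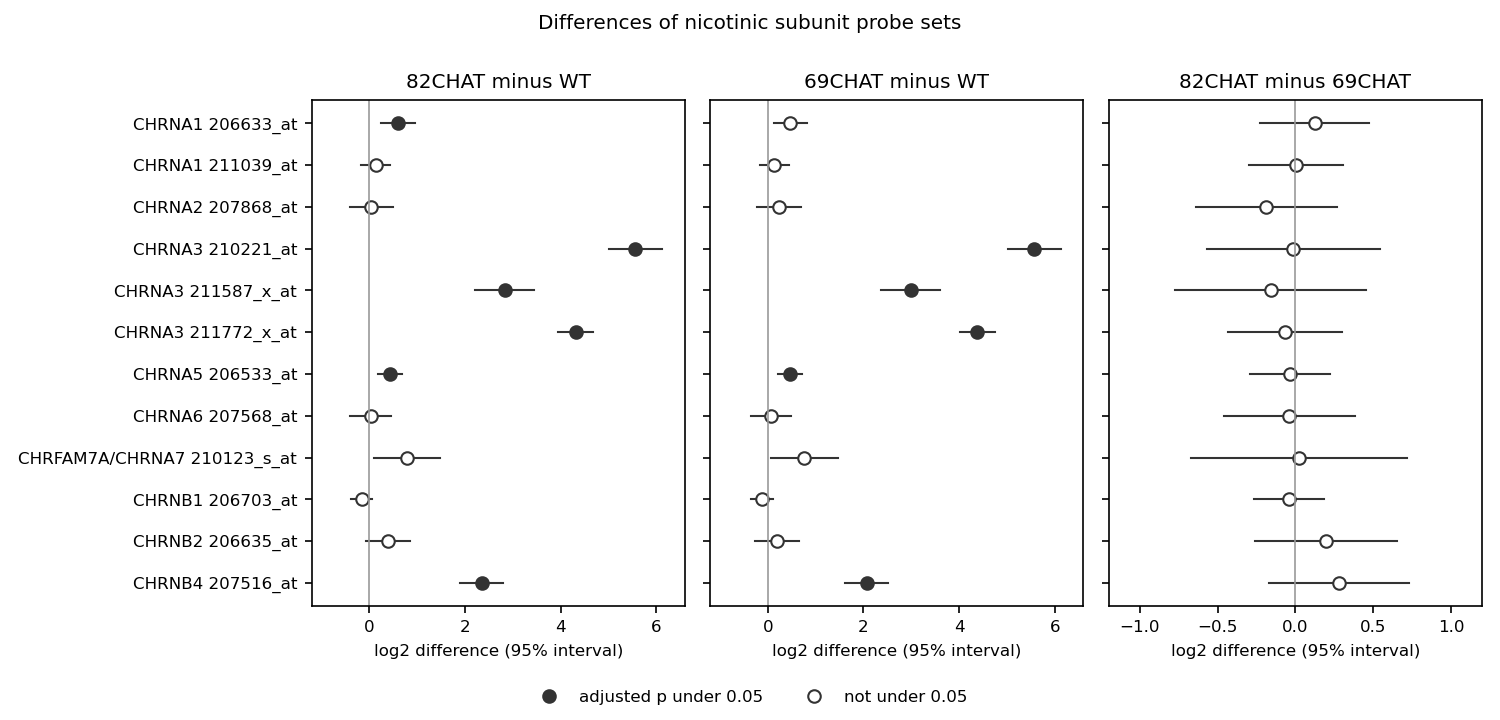
Log2 difference of each subunit probe set with its 95% interval from the limma fit over 9 arrays, for 82CHAT minus WT, 69CHAT minus WT and 82CHAT minus 69CHAT. The CHRNA3 and CHRNB4 intervals lie far above 0 in both comparisons with WT, and every interval of 82CHAT minus 69CHAT includes 0; filled points passed the adjusted p threshold.

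The muscle-type subunits gave a small and divided picture. CHRNA1 encodes α1, which carries the binding sites of the muscle receptor. Its probe set 206633_at read 123, 92.6 and 105 on the 82CHAT arrays, 83.3, 101 and 109 on the 69CHAT arrays, and 65.9, 83.0 and 62.3 on the WT arrays. Each line lay above WT without overlap, all values below the median of their arrays. The log2 difference was 0.60 (SE 0.15) in the 82CHAT line, 1.52-fold (limma adjusted p = 0.019). It was 0.48 (SE 0.15) in the 69CHAT line, which missed the threshold (limma adjusted p = 0.052). These calls sat near the threshold on both sides. The 82CHAT call was lost without 82CHAT replicate 1 (adjusted p = 0.053), 82CHAT replicate 3 (0.0503), WT replicate 1 (0.065) or WT replicate 3 (0.074), while the 69CHAT difference passed without 69CHAT replicate 1 (0.027), 82CHAT replicate 1 (0.037) or WT replicate 2 (0.029). It also passed with dim probe sets left out (0.046), with eBayes trend and robust settings (0.048) and with replicates 2 and 3 alone (0.023).

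The second CHRNA1 probe set, 211039_at, was dimmer and was not called. It read 65.9, 56.9 and 46.5 on the 82CHAT arrays, 61.8, 52.8 and 52.8 on the 69CHAT arrays, and 52.8, 52.3 and 47.3 on the WT arrays, and lay below the lower quartile on 2, 2 and 3 arrays of those groups. Its log2 differences from WT were 0.14 in the 82CHAT line (limma adjusted p = 0.48) and 0.13 in the 69CHAT line (adjusted p = 0.51). So the raised CHRNA1 level rests on 1 of the 2 probe sets.

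CHRNB1 encodes β1, the partner of α1 in muscle. Probe set 206703_at read 102, 101 and 94.3 on the 82CHAT arrays, 110.1, 103 and 93.9 on the 69CHAT arrays, and 123, 108 and 102 on the WT arrays. It was the 1 member whose differences from WT were below 0 in both lines, at -0.16 in the 82CHAT line (95% interval -0.38 to 0.07, limma adjusted p = 0.28) and -0.12 in the 69CHAT line (interval -0.34 to 0.11, adjusted p = 0.44). The groups overlapped and no difference was called. The 4 skeletal muscle markers read low and were called in neither line, with summed intensities of 369 to 474 in the 82CHAT line, 386 to 478 in the 69CHAT line and 360 to 410 in WT. With the replicate block 1 of them, MYOG, was called higher in the 69CHAT line (limma adjusted p = 0.028).

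Among the subunits better known from the brain, none with a probe set of its own was called. CHRNB2 encodes β2, which pairs with α4 in brain receptors and also with α3. Probe set 206635_at read 512, 368 and 308 on the 82CHAT arrays, 407, 306 and 308 on the 69CHAT arrays, and 344, 261 and 282 on the WT arrays. Replicate 1 was the highest array of every group, and the groups overlapped. The log2 difference was 0.40 in the 82CHAT line (95% interval -0.06 to 0.86, limma adjusted p = 0.19) and 0.20 in the 69CHAT line (interval -0.26 to 0.66, adjusted p = 0.52). With the replicate number as a block, the 82CHAT difference was called (limma adjusted p = 0.015) and the 69CHAT difference was not (adjusted p = 0.14). Replicates 2 and 3 alone also gave a call in the 82CHAT line (0.31, adjusted p = 0.044).

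CHRNA2 and CHRNA6 encode α2 and α6, subunits with narrow distributions in the nervous system; α6 is known from dopamine neurons. CHRNA2 probe set 207868_at read 167, 179 and 150.1 on the 82CHAT arrays, 227, 180.0 and 162 on the 69CHAT arrays, and 209.8, 159.7 and 122 on the WT arrays. CHRNA6 probe set 207568_at read 83.7, 68.3 and 63.1 on the 82CHAT arrays, 93.0, 66.5 and 63.2 on the 69CHAT arrays, and 84.5, 61.0 and 65.9 on the WT arrays. The groups overlapped for both genes. The log2 differences of CHRNA2 were 0.05 in the 82CHAT line (95% interval -0.41 to 0.50) and 0.23 in the 69CHAT line (interval -0.22 to 0.69). Those of CHRNA6 were 0.03 (interval -0.39 to 0.45) in the 82CHAT line and 0.07 (interval -0.35 to 0.49) in the 69CHAT line, with limma adjusted p between 0.45 and 0.92 for both genes. The sign of the CHRNA6 difference turned in both lines, and that of CHRNA2 in the 82CHAT line, when some single arrays were left out.

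CHRNA7 encodes α7, and its only named probe set, 210123_s_at, cannot separate it from CHRFAM7A. It read 140.1, 225 and 232 on the 82CHAT arrays, 121, 290.3 and 199 on the 69CHAT arrays, and 106, 112 and 120 on the WT arrays. Every line array exceeded every WT array, with replicate 1 of each line just above and replicates 2 and 3 well above. The log2 difference of 0.79 in the 82CHAT line (95% interval 0.10 to 1.49) missed the threshold (limma adjusted p = 0.094), and so did that of 0.77 in the 69CHAT line (SE 0.31, interval 0.07 to 1.47, adjusted p = 0.106). With the replicate number as a block both were called, with limma adjusted p = 0.020 in the 82CHAT line and 0.023 in the 69CHAT line. From replicates 2 and 3 alone the log2 differences were 0.99 (adjusted p = 0.0037) and 1.06 (adjusted p = 0.0026) in the 82CHAT and 69CHAT lines, where 19.4% and 18.5% of all probe sets were called higher. The 69CHAT difference also passed without 69CHAT replicate 1 (0.011), and the 82CHAT difference without 82CHAT replicate 1 (0.040) or 69CHAT replicate 1 (0.027) and in the fit of the 6 arrays compared (0.028).

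The direct comparison of the lines asks whether the forms of choline acetyltransferase went with different subunit levels. No subunit probe set was called between the 82CHAT and 69CHAT lines by limma, where 0.0% of all probe sets were called, and 0 of the 11 had an unadjusted p below 0.05, against 3.3% of all. CHAT itself was not called either. It was higher in the 82CHAT line by 1.97 on the log2 scale, without overlap (unadjusted p = 0.00032 and adjusted p = 0.70 in the limma fit). So the absence of a call says little here. Among the subunits, CHRNB4 came nearest. Its 82CHAT values, from 238 to 255, all lay above the 201 of the 69CHAT arrays, a log2 difference of 0.28 (SE 0.20, 95% interval -0.17 to 0.73, unadjusted p = 0.19 and adjusted p = 1.0 in the limma fit). It was the 1 probe set of the 11 on which every 82CHAT array exceeded every 69CHAT array, against 3.18% of all probe sets, though its 69CHAT values are the identical ones. The CHRNA3 probe sets differed by -0.01 (interval -0.57 to 0.54), -0.07 (interval -0.43 to 0.30) and -0.16 (interval -0.77 to 0.45) for 210221_at, 211772_x_at and 211587_x_at, and CHRNA5 by -0.04 (interval -0.29 to 0.22). CHRNB2 differed by 0.20 (interval -0.26 to 0.66) and CHRNA1 probe set 206633_at by 0.12 (interval -0.23 to 0.48). Over the 12 probe sets the differences ran from -0.19 to 0.28. The outermost interval bounds were -0.77 for CHRNA3 211587_x_at and 0.73 for CHRNB4, and other intervals were narrower, such as -0.27 to 0.18 for CHRNB1. Log2 differences inside a probe set's own interval were not resolved by 3 arrays a line.

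Inside the groups, replicate 1 stood apart on several subunit probe sets, as it did on many of all probe sets. On the log2 scale, replicate 1 of the shared CHRNA7 probe set lay below the mean of replicates 2 and 3 by 0.71 in the 82CHAT line, by 0.99 in the 69CHAT line and by 0.13 in WT. CHRNB2 went the other way, with replicate 1 above the mean of replicates 2 and 3 by 0.60 in the 82CHAT line, 0.40 in the 69CHAT line and 0.34 in WT. For CHRNA3 probe set 210221_at the offset was -0.29 in the 82CHAT line, -0.78 in the 69CHAT line and 0.50 in WT, so it did not share a sign. Replicate 1 was the highest array in all 3 groups for 4 of the 12 probe sets, 33.3%, against 25.1% of all probe sets, and the lowest in all 3 groups for 2 of the 12, 16.7%, against 16.2%. With the replicate block, 7 of the 11 probe sets were called higher in the 82CHAT line and 5 in the 69CHAT line, against 17.9% and 16.6% of all probe sets called higher.

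**Figure D3:**
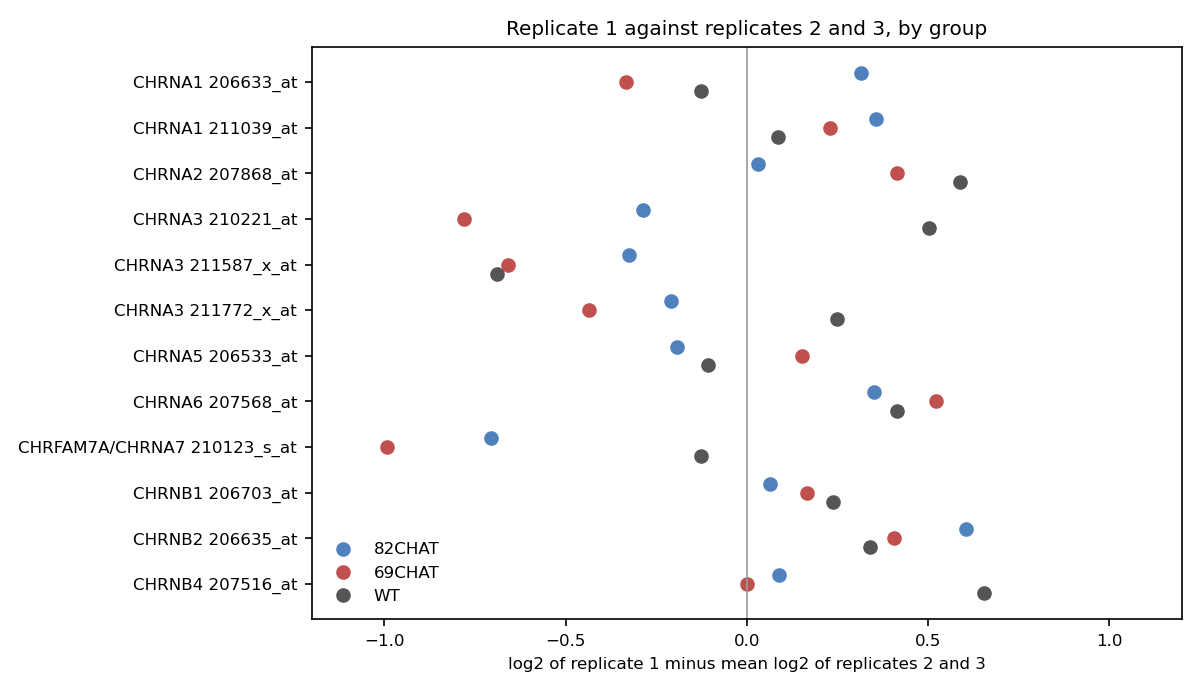
Replicate 1 minus the mean of replicates 2 and 3 on the log2 scale for each subunit probe set, within each group of 3 arrays. The shared CHRNA7 probe set lies below 0 and CHRNB2 and CHRNA6 above 0 in all 3 groups, while CHRNA3 probe set 210221_at is below 0 in the lines and above 0 in WT.

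The remaining nicotinic subunits were called in few cases, where 11.8% and 11.7% of genes were called higher in the 82CHAT and 69CHAT lines. All 6 listed, CHRNA9, CHRNA10, CHRNB3, CHRND, CHRNE and CHRNG, were measured, and 0 were called in the 82CHAT line by limma (1, CHRNG, had an unadjusted p below 0.05 and was called higher with the replicate block, adjusted p = 0.045) and 1 in the 69CHAT line, with median log2 differences of 0.18 and 0.15 against 0.052 over all genes in each comparison. The gene called was CHRNA9, which encodes the α9 subunit known from cochlear hair cells. It read 43.3, 45.4 and 43.3 on the 82CHAT arrays, 43.0, 69.7 and 66.7 on the 69CHAT arrays, and 39.6, 39.6 and 36.1 on the WT arrays, all in the dim part of the range except 2 of the 69CHAT arrays. Its log2 difference was 0.20 in the 82CHAT line (limma adjusted p = 0.43) and 0.61 in the 69CHAT line (limma adjusted p = 0.027). That call was lost without 69CHAT replicate 2 (0.099) or 3 (0.095) or WT replicate 1 (0.061), 2 (0.063) or 3 (0.090), with quantile normalization repeated (0.052), and in the fit of the 6 arrays compared (0.060).

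Among genes listed for receptor assembly, trafficking and modulation, calls went in both directions. Of 18 measured genes of 23 listed, 4 were higher and 4 lower in the 82CHAT line, and 3 were higher and 3 lower in the 69CHAT line, where 11.8% and 18.5% of genes were called higher and lower in the 82CHAT line and 11.7% and 17.7% in the 69CHAT line. Blocking on the replicate number gave 6 higher and 4 lower in the 82CHAT line, and 6 higher and 3 lower in the 69CHAT line; DLG4 and SLURP1 were added in both lines and LYPD1 in the 69CHAT line. TMEM35A, the NACHO chaperone needed to assemble α7 and other neuronal receptors, read 211 to 256 on 82CHAT arrays, 204 to 253 on 69CHAT arrays and 62.5 to 69.7 on WT arrays. It was 3.52-fold higher in the 82CHAT line (limma adjusted p = 6.5e-06) and 3.34-fold higher in the 69CHAT line (limma adjusted p = 8.5e-06). NEFM, the medium neurofilament subunit, was 3.06-fold higher (limma adjusted p = 0.0013) and 2.71-fold higher (adjusted p = 0.0025) in the 82CHAT and 69CHAT lines. AGRN, which encodes agrin, the matrix protein that clusters muscle receptors at the synapse, read 341 to 368 on 82CHAT arrays, 319 to 455 on 69CHAT arrays and 1286 to 1639 on WT arrays with its brightest probe set. Its log2 difference was -2.05 in the 82CHAT line (limma adjusted p = 1.5e-05) and -1.90 in the 69CHAT line (limma adjusted p = 2.4e-05), and of its 4 probe sets 2 were called. ERLIN2, an endoplasmic reticulum membrane protein, differed by -1.18 (limma adjusted p = 0.0011) and -0.89 (adjusted p = 0.0050) in the 82CHAT and 69CHAT lines on 1 of its 2 probe sets.

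Genes listed for acetylcholine, with PCYT1A and choline kinase genes among them, were called higher or not at all. Of 10 measured genes for acetylcholine synthesis, transport and breakdown, of 11 listed, 4 were called higher in the 82CHAT line, CHAT included, and 3 in the 69CHAT line, and 0 were lower. Over all genes, 11.8% were called higher and 18.5% lower in the 82CHAT line, and 11.7% and 17.7% in the 69CHAT line. SLC18A3, the vesicular acetylcholine transporter, was 3.15-fold higher in the 82CHAT line (limma adjusted p = 0.00012) and 3.08-fold higher in the 69CHAT line (adjusted p = 0.00014). BCHE, the esterase butyrylcholinesterase, was 4.37-fold higher (limma adjusted p = 0.00088) and 2.88-fold higher (adjusted p = 0.0053) in the 82CHAT and 69CHAT lines. PCYT1A, an enzyme of phosphatidylcholine synthesis, differed by 0.48 (limma adjusted p = 0.010) and 0.47 (adjusted p = 0.011) in the 82CHAT and 69CHAT lines on 1 of its 2 probe sets. Between the lines 0 of the 10 genes were called by limma, and 2, CHAT and CHKA, a choline kinase gene, had an unadjusted p below 0.05. From replicates 2 and 3 alone BCHE was higher in the 82CHAT line than in the 69CHAT line, by 0.95 on the log2 scale (limma adjusted p = 0.015), as were 1.13% of all genes in that fit.

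The muscarinic receptors are the G protein coupled receptors of the same ligand. Of 4 measured, of 5 listed, 1 was called higher in each line, against 11.8% and 11.7% of genes in the 82CHAT and 69CHAT lines. It was CHRM2, the receptor best known from the heart. CHRM2 read 102 to 137 on 82CHAT arrays, 101 to 119 on 69CHAT arrays and 59.8 to 74.9 on WT arrays, with log2 differences of 0.76 (limma adjusted p = 0.0035) and 0.67 (adjusted p = 0.0066) in the 82CHAT and 69CHAT lines. With the replicate block CHRM4 was called higher in both lines as well.

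Of the transcription factors reported at subunit promoters, 17 of 20 listed were measured, and 4 were called higher and 3 lower in each line. Of all genes, 11.8% were called higher and 18.5% lower in the 82CHAT line, and 11.7% and 17.7% in the 69CHAT line. The median log2 difference of the factors was 0.18 in the 82CHAT line and 0.20 in the 69CHAT line, against 0.052 over all genes in each. PHOX2A, a homeobox factor of autonomic neurons, read 1035 to 1572 on 82CHAT arrays, 761 to 1327 on 69CHAT arrays and 90.8 to 108 on WT arrays. It was 13.8-fold higher in the 82CHAT line (limma adjusted p = 7.4e-06) and 11.4-fold higher in the 69CHAT line (limma adjusted p = 1.2e-05). GATA3, a zinc finger factor of the sympathetic lineage, was 6.21-fold higher (limma adjusted p = 0.00010) and 5.10-fold higher (adjusted p = 0.00020) in the 82CHAT and 69CHAT lines. TFAP2A, an AP-2 factor of neural crest and epithelium, read 101 to 309 on 82CHAT arrays, 96.3 to 116 on 69CHAT arrays and 845 to 1315 on WT arrays, with log2 differences of -2.88 (limma adjusted p = 0.00065) and -3.44 (limma adjusted p = 0.00023) in the 82CHAT and 69CHAT lines. POU4F1, a POU factor of sensory neurons, differed by -1.01 (limma adjusted p = 6.9e-05) and -0.997 (adjusted p = 7.5e-05) in the 82CHAT and 69CHAT lines. The 4 factors called higher in each line were PHOX2A, GATA3, HAND2 and ISL1. All 4 also stand in the neuroblastoma marker list, so these calls repeat marker calls given above. With the replicate number as a block, SP1 and SP4, of the family that binds GC boxes, were called higher in both lines too, in a fit that called 18.3% and 17.4% of genes higher, and 23.6% and 22.9% lower, in the 82CHAT and 69CHAT lines.

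**Figure D4:**
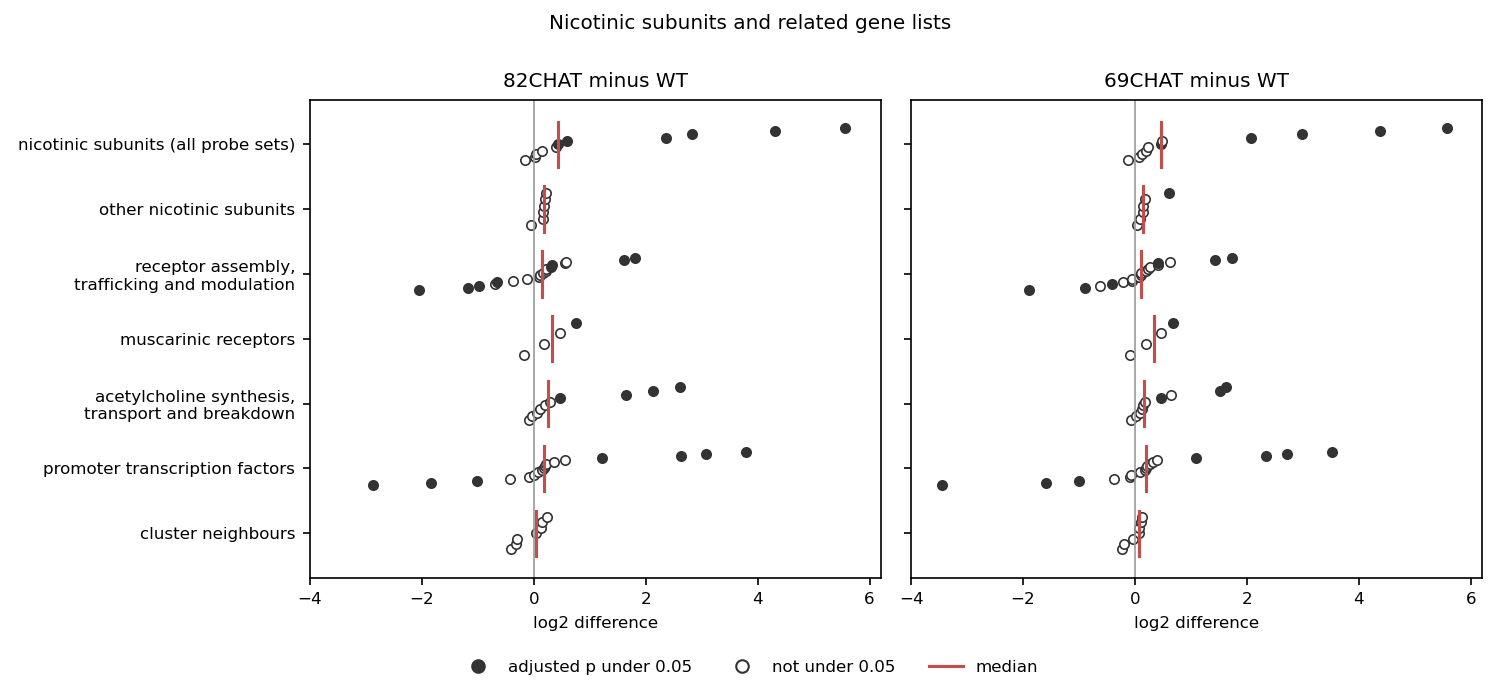
Log2 difference from WT of each subunit probe set (top row) and of each measured gene in the 6 related lists, by its brightest probe set, for 82CHAT minus WT and 69CHAT minus WT, with points past the adjusted p threshold filled and a bar at each median. In the related lists the largest differences upward and downward are those of PHOX2A and TFAP2A, both promoter transcription factors.

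The genes whose log2 values followed CHRNA3 probe set 210221_at most closely over the 9 arrays were TCF12 (Pearson r = 0.998), RAMP2 (0.995), ZNF22 (0.994), CD24 (0.993) and TET3 (0.992). TCF12, an E-protein, read 1363 to 1766 on 82CHAT arrays, 1315 to 1798 on 69CHAT arrays and 289 to 441 on WT arrays. These correlations describe the split between the lines and WT that all 9 arrays share, and 450 of 19054 probe sets of other genes had r above 0.95.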

How the data were processed

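Total RNA was measured on 9 single-channel oligonucleotide arrays, 3 for each group named in the sample titles. Per the submitters' processing notes, the authors made the deposited intensity values with RMA, which corrects background, normalizes between arrays and summarises probes; no source used here gives its version or the step to the linear scale of 14.9 to 21486. Of 22283 probe sets, 68 controls were left out and 22215 tested. The platform annotation gave 19065 probe sets 1 symbol, 1043 several and 2107 none.

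Intensities were taken to log2 and fitted in limma 3.58.1 (R 4.3.3) with 3 group means over 9 arrays and eBayes; tests were two-sided and adjusted (Benjamini-Hochberg) over 22215 probe sets, threshold 0.05. The fit was tested on simulated data. The submitters call the 3 samples of a group biological replicates, with no further detail, so p-values measure the spread between these samples. Their number limits the precision. In all 9 pairs of arrays with one number, deviations from the group means correlated, with r from 0.28 to 0.57. The 18 pairs with different numbers ran from -0.59 to 0.48. Deviations sum to 0 within each group, so correlations above 0 for some pairs force others below 0. Pairs of a replicate 1 with a replicate 2 or 3 were all below 0, and pairs of a replicate 2 with a replicate 3 ran from 0.21 to 0.48. So the correlations set replicate 1 apart and did not separate replicate 2 from 3. The replicate number of the titles was taken as a pairing, and the fit with it as a block is given where it changes a call. All members are named, as well as up to 4 called genes of each related list by smallest adjusted p, the 5 genes most correlated with the brightest CHRNA3 probe set, and CHAT. PSMA4, MORF4L1, HAND2, ISL1 and the genes called in a single alternative were named after their values were seen. Lists use the brightest probe set of each gene. Members and lists were chosen with earlier results of these data known. Motifs were searched in RefSeq promoter windows (GRCh38.p14).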

Additional observations from a re-analysis of the deposited data

How the results depend on the processing

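Of 424 alternative values of the 12 subunit probe sets against WT, 389 kept direction and side of the threshold, 11 lost a call, 16 gained one and 8 turned in sign, none of them called. Of 212 between the lines, 187 kept both and 25 turned in sign, none called. The CHRNA3 and CHRNB4 calls against WT held under every alternative run (median centring, quantile normalization again, a pseudocount of 16, dim probe sets left out, eBayes with trend and robust settings, the 6 arrays compared alone, the replicate block, replicates 2 and 3 only, each array left out, and, for the probe sets it keeps, _x_at and _s_at left out), the CHRNA5 calls under all but the 7 omissions named above. With _x_at and _s_at probe sets left out, 3 subunit probe sets were called higher in the 69CHAT line, 3 related genes lower in the 82CHAT line (7 with all) and 2 in the 69CHAT line (6 with all), and 1220 and 1229 of all probe sets higher and 1560 and 1483 lower in the 82CHAT and 69CHAT lines, since fewer are tested. The replicate block changed the CHRNB2 and shared CHRNA7 calls named above and no other subunit call, and called 3967 and 3686 of all probe sets higher (2453 and 2422 without it) in the 82CHAT and 69CHAT lines. Replicates 2 and 3 alone gave 4308 and 4114 higher, 24 related genes higher in the 82CHAT line (13 with all arrays), and between the lines 218 probe sets higher and 236 lower, among related genes 1 higher and 2 lower (BCHE, CHRNA9 and CTSH). The causes were not tested.

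Leaving out 1 array called 4 to 6 subunit probe sets higher in each line, and between the lines 0 to 26 of all probe sets higher and 0 to 10 lower, and 0 to 1 related genes. Signs turned for uncalled log2 differences. With quantile normalization again these were CHRNA6 in the 82CHAT line against WT (-0.0037) and CHRNA1 211039_at between the lines (-0.0037). Between the lines with replicates 2 and 3 alone they were -0.091 and -0.037 for CHRNA1 206633_at and 211039_at, 0.080 for CHRNA5, 0.018 for CHRNA6 and -0.073 for the shared CHRNA7 probe set. With 1 array left out, CHRNA6 ranged from -0.089 to 0.17 in the 82CHAT line and from -0.11 to 0.21 in the 69CHAT line, and CHRNA2 from -0.15 to 0.24 in the 82CHAT line. Between the lines the ranges were -0.11 to 0.14 for CHRNA1 211039_at, -0.27 to 0.14 for CHRNA3 210221_at, -0.21 to 0.0057 for CHRNA3 211772_x_at, -0.10 to 0.029 for CHRNA5, -0.16 to 0.13 for CHRNA6, -0.10 to 0.013 for CHRNB1, -0.0019 to 0.36 for CHRNB2 and -0.31 to 0.32 for the shared CHRNA7 probe set. Probe sets near the lower quartile of an array, such as CHRNA1 211039_at and CHRNA6, are limited by their low signal.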
